A study of Mus musculus with 20 samples.

Results

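AT-rich introns are described here as the introns whose own GC content, listed as a percent in the authors' table of splicing intermediates and splice site scores, lies under 40%. The rule took 1728 of the 6537 introns in that table, or 26.4%, in 595 of 1407 genes. It used base composition only and none of the splicing values. Of the 1728, 544 were listed in both conditions, 1003 in uninduced cells only and 181 in induced cells only. Introns of GC 42 to 52%, of which the table holds 2959, served as the comparison introns and were matched to the AT-rich introns on length.

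The RNA came from wild-type murine erythroleukemia (MEL) cells, a virus-transformed red cell precursor line kept in culture. The uninduced group had no DMSO, and the induced group was kept in 2% DMSO for 5 days, which starts erythroid maturation. Each group had 4 long-read samples, made of 2 biological replicates run on 2 PacBio instruments, and the tables give 1 pooled line per intron and condition. No value here therefore has a replicate error, and every test compares 2 pools of reads, not 2 conditions. The RNA of both groups was bound to chromatin and was depleted of polyadenylated and ribosomal RNA, so most molecules should be unfinished transcripts. MEL cells are a transformed line and stand for red cell precursors only within that limit. The other 12 of the series' 20 samples were not analysed here.

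An intron is removed in 2 chemical steps: the 5′ splice site is cut and joined to a branch point adenosine as a lariat, and the exons are then joined at the 3′ splice site. The U2 auxiliary factor reads the run of pyrimidines that lies between the branch point and the closing AG. Mammalian introns of low GC content tend to sit in AT-rich parts of chromosomes and beside exons of higher GC content than their own. Splicing often takes place while the polymerase is still on the gene, and long reads of chromatin-bound RNA show, molecule by molecule, which introns are already gone.

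Both readouts are fractions of reads. Co-transcriptional splicing efficiency, coSE, is the number of reads spliced at an intron over spliced plus unspliced reads. NIC is the deposited fraction of splicing intermediates, taken as molecules that have passed the first step but not the second. NIC is the number of intermediates over intermediates plus spliced reads. Unspliced reads are not part of it, and where NIC is given below, molecules means intermediates plus spliced reads only.

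Short AT-rich introns show in full what the rule selects. The sequences below run 5′ to 3′ on the strand of the gene, with the first and last bases of the intron that define its splice form in capitals. They come from the GENCODE release 21 transcripts of GRCm38 in which the intron is retained. The first 5 are AT-rich introns named in the results, and the last 2 are short comparison introns.
Eef1a1 intron 4 (chr9:78479775-78479851, minus strand, GC 37.7%): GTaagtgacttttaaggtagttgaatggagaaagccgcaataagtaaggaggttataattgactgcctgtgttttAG
Eef1a1 intron 5 (chr9:78479535-78479623, minus strand, GC 23.6%): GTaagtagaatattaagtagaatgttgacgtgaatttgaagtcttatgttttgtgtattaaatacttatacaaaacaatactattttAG
Hnrnpa3 intron 3 (chr2:75661818-75661895, plus strand, GC 20.5%): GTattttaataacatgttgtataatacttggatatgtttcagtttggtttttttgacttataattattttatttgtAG
Hnrnpk intron 15 (chr13:58393775-58393852, minus strand, GC 24.4%): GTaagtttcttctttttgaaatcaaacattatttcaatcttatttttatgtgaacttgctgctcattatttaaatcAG
Ddx3y intron 13 (chrY:1264959-1265027, minus strand, GC 17.4%): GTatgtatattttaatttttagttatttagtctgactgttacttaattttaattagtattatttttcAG
Rpl14 intron 4 (chr9:120573676-120573763, plus strand, GC 44.3%): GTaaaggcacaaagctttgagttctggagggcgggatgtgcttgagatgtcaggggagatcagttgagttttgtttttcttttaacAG
Eef2 intron 12 (chr10:81181411-81181492, plus strand, GC 48.8%): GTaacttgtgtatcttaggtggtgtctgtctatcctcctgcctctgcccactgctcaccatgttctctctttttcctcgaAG

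All 7 lie between coding exons. The AT-rich introns keep the GT and AG ends, and the letters between them are mostly thymine and adenine. In Ddx3y intron 13, the shortest of these, the whole intron is 69 nt long.

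AT-rich introns carried 3′ splice sites richer in thymine and poorer in cytosine than length-matched comparison introns. Over the last 20 intron bases, thymine made up 48.3% against 42.4%, cytosine 18.4% against 26.5% and adenine 19.6% against 15.1%. Pyrimidines together made up 66.7% against 68.9%, so that cytosine was lower by more than thymine was higher. The base just before the closing AG was cytosine in 47.2% of AT-rich introns and in 62.4% of the comparison introns. These bases are part of the intron whose GC content set the rule, but over introns longer than 500 nt, where they weigh little, thymine was 48.3% against 43.0% and cytosine 18.9% against 26.1%.

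**Figure D1:**
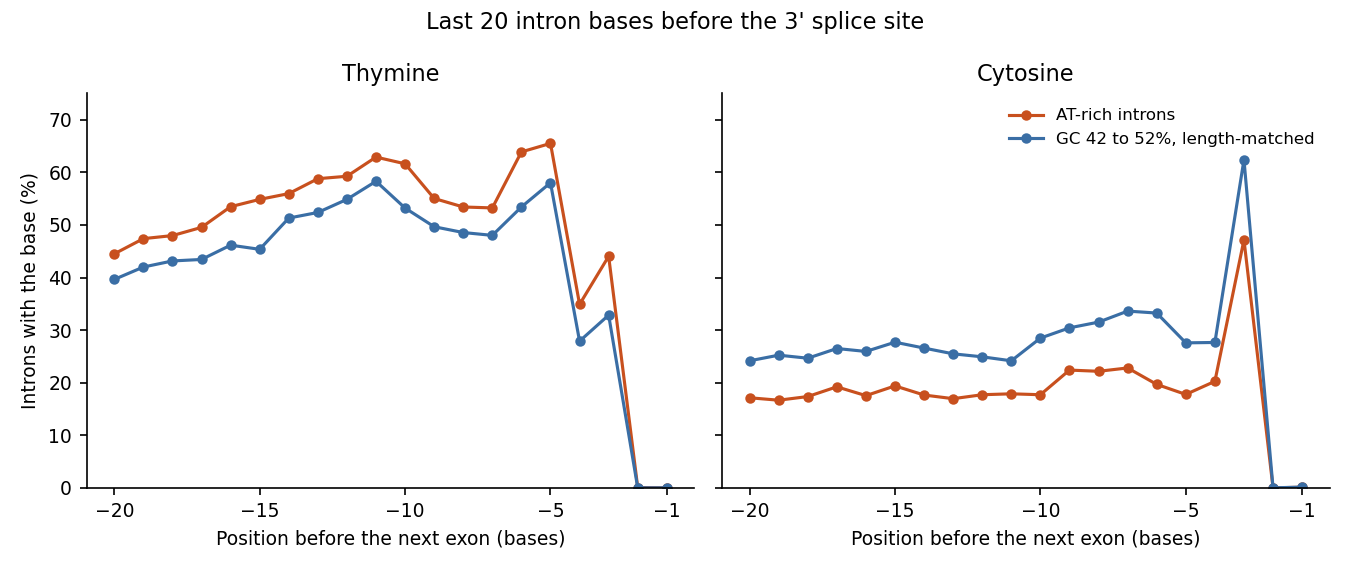
Share of introns with thymine (left) or cytosine (right) at each of the last 20 intron bases, for AT-rich introns and for length-matched introns of GC 42 to 52%. At position -5 thymine stood at 65.5% in AT-rich and 58.0% in comparison introns, and at position -6 cytosine stood at 19.7% and 33.2%.

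At the 5′ splice site, the base at intron position +3 was adenine in 74.9% of AT-rich introns and 58.4% of comparison introns, and guanine in 18.2% and 36.6%. Guanine at position +5, which pairs with U1 RNA, was present in 72.8% and 82.1%. The authors' splice site scores were lower on average in AT-rich introns, 8.24 against 8.43 at the 5′ site and 8.11 against 8.64 at the 3′ site. The SD of the 3′ score among AT-rich introns, 2.68, describes the spread of single introns, and the differences of means were not tested.

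The exons beside AT-rich introns had lower GC content as well. The upstream exon averaged 45.1% against 52.2%, and the downstream exon 43.9% against 49.6%. They were first introns in 3.94% of cases against 16.8%, and 69.6% were present in all annotated transcripts that span them, against 66.0%.

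Rare splice forms were scarce in AT-rich introns and elsewhere. The form removed by the minor spliceosome, called here from GTATCC or ATATCC at the 5′ site and named U12-type, was found in 9 of 1728 AT-rich introns (0.521%), against 0.535% of all introns in the table. The GC-AG form was found in 14 (0.810%) against 0.658%. The 5′ splice sites of 2 deep U12-type introns that begin with GT, and of one that begins with AT, are shown with 3 exon bases in lower case and the matched intron bases in capitals.
Rpl4 intron 3 (chr9:64175301-64175583): aatGTATCC
Ssr3 intron 4 (chr3:65382035-65382991): agtGTATCC
Gmfb intron 4 (chr14:46814988-46815598): tcgATATCC

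The minor spliceosome is known for slow removal of its introns. Branch points were not examined, so which spliceosome removes these introns was not tested. Those of the 9 that are given here were not uniformly low in coSE. coSE in the uninduced pool was 1 at Ssr3 intron 4 (61 of 61 reads) and 0.936 at Vps35 intron 3 (44 of 47). It was 0.889 at Rpl4 intron 3 (360 of 405) and 0.519 at Gmfb intron 4 (14 of 27), whose Wilson 95% interval ran from 0.340 to 0.693. The induced value of Gmfb intron 4 was 0.400 on 10 reads. The 5 deepest GC-AG introns also spread widely: Mkln1 intron 9 (19 of 19 reads spliced), Rictor intron 3 (28 of 28) and Pkhd1l1 intron 67 (30 of 31) were at or near 1 in the uninduced pool, Rps27a intron 3 was at 0.910 (142 of 156), and Prc1 intron 4 was at 0.652 (15 of 23).

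GC content among the members had a median of 37.1% and reached 39.99%, and length ran from 56 to 77441 nt with a median of 982.5 nt. The rule cuts through a continuous range. Just inside the limit, Rpl24 intron 3 (39.93%), Atp6ap2 intron 6 (39.93%) and Rad21 intron 8 (39.98%) had uninduced coSE of 0.989 (86 of 87 reads), 18 of 20 reads, and 0.948 (109 of 115). Just outside it, at 40.0%, 4933434E20Rik intron 7, Slc38a2 intron 14 and Top2a intron 9 had 0.818, 0.556 and 1.

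The marker genes matched the erythroid label. Of 11 erythroid marker genes, 9 had reads at an intron in the uninduced pool (Slc4a1 and Tal1 were at 0) and 11 in the induced pool, where the deepest intron had 1099 reads. Markers of macrophages (0 of 4), T cells (0 of 1) and B cells (0 of 1) had none in either pool. Both megakaryocyte markers, Itga2b and Pf4, had reads, up to 40 at an intron before and 156 after induction, and their part in the results below was not tested.

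Every AT-rich intron listed for a pool had at least 10 reads there, so no further minimum removed members within a pool. In the uninduced pool the 1547 AT-rich introns held 46002 spliced and 5605 unspliced observations, and a long read counts at each intron that it covers. Depth per intron ran from 10 to 588 reads with a median of 21. In the induced pool the 725 AT-rich introns held 22748 and 2774 observations, with 10 to 317 reads and a median of 24. PCR copies were not told apart from molecules in the sources used here, so intervals and floors cover counting error only.

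Most AT-rich introns were already spliced on chromatin. Uninduced coSE averaged 0.869 with a median of 0.941, no unspliced read was seen at 512 introns (33.1%), and 88 introns (5.69%) were under 0.5. Induced coSE averaged 0.868 with a median of 0.947, 254 of 725 introns had no unspliced read, and 50 (6.90%) were under 0.5. At the median depth, a coSE of 1 says only that unspliced reads were not detected.

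Against comparison introns of the same length, AT-rich introns were spliced slightly more often. The mean coSE in the uninduced pool was 0.870 over 1546 AT-rich introns and 0.853 over 2503 comparison introns weighted to the same lengths, a difference of 0.0164 (95% counting interval 0.0118 to 0.0211). The induced mean was 0.868 (n = 722) against 0.857 (n = 1340), a difference of 0.0112 (0.00474 to 0.0177). The share of introns with no unspliced read was 33.1% against 28.4% among uninduced and 35.04% against 33.6% among induced introns. Over the alternatives tried, the uninduced difference ran from 0.00677 to 0.0361 and the induced one from -0.00326, without length matching, to 0.0345. Introns of a gene share molecules, and the intervals leave out the spread between genes.

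The difference was wider in introns of up to 500 nt than in longer ones, with intervals that do not overlap in either pool. In the short introns, mean coSE was 0.795 in AT-rich and 0.755 in comparison introns of the uninduced pool, 0.0391 apart (0.0297 to 0.0484; n = 495 and 685). Induced means were 0.799 and 0.761, 0.0383 apart (0.0256 to 0.0510; n = 263 and 392). Above 500 nt the uninduced difference was 0.00556 (0.000336 to 0.0108), and the induced means were 0.908 and 0.913, whose difference of -0.00496 had an interval from -0.0121 to 0.00214.

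**Figure D2:**
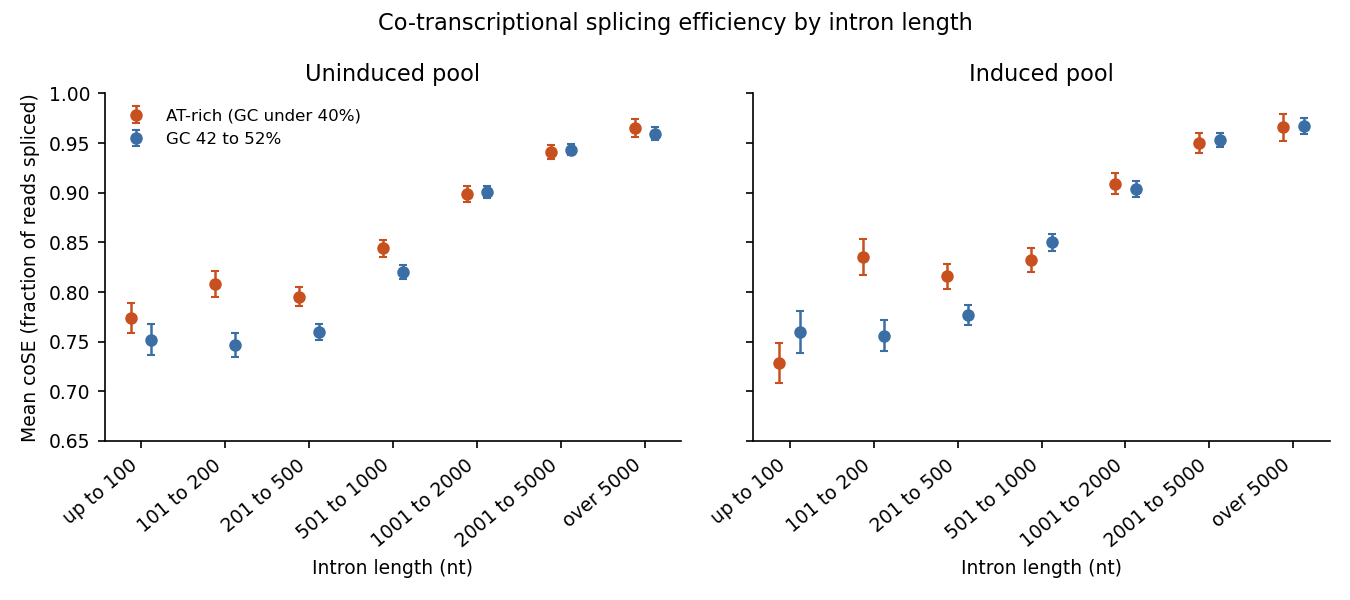
Mean coSE by intron length for AT-rich introns and for introns of GC 42 to 52%, in the uninduced (left) and induced (right) pool, with 95% intervals for counting error only. The classes stand farthest apart over 100 and up to 200 nt, at 0.808 against 0.747 among uninduced and 0.835 against 0.756 among induced introns, and lie together above 1000 nt.

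Introns of up to 100 nt did not follow the same order in both pools. AT-rich introns of that length averaged 0.773 against 0.752 in the uninduced pool (116 and 107 introns) and 0.728 against 0.760 in the induced pool (71 and 62). Introns over 500 and up to 1000 nt also changed order, with 0.844 against 0.820 among uninduced and 0.832 against 0.850 among induced introns.

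Length ordered the AT-rich introns more than GC content did. From up to 100 nt to over 5000 nt, their mean coSE went from 0.773 to 0.965 among uninduced and from 0.728 to 0.966 among induced introns. Spearman's rho between length and coSE, across 1547 uninduced introns that share genes and libraries, was 0.384. The rho between GC content and coSE was 0.176. Over the 496 introns of up to 500 nt both were lower, 0.0811 for length and 0.0377 for GC content. The introns lowest in GC content were also the shortest: under 30% the median length was 146 nt and the mean coSE 0.786 (121 introns), while from 38 to 40% they were 1661 nt and 0.901 (567 introns). Among introns of up to 500 nt the same 2 steps gave 0.778 and 0.808.

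Single AT-rich introns of very low GC content could be fully spliced. The 5 lowest with at least 20 reads in both pools were Ddx3y intron 11 and Ptcd3 intron 2 (both 18.3%), Top2a intron 8 (21.9%), U2surp intron 4 (22.5%) and Nemf intron 2 (22.6%). Ptcd3 intron 2 was spliced in all 38 uninduced and all 20 induced reads. Top2a intron 8, in the gene of the topoisomerase that untangles DNA at mitosis, was spliced in 41 of 43 and 39 of 39 reads. Ddx3y intron 11, in the gene of an RNA helicase on the Y chromosome, was lowest of the 5 in both pools, at 0.768 (43 of 56 reads) and 0.905 (19 of 21).

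When introns were compared within a gene, AT-rich introns were not ahead. Over 349 genes with both kinds in the uninduced pool, the AT-rich mean was 0.871 and the mean of comparison introns 0.875, a difference of -0.00413 (-0.0122 to 0.00398). AT-rich introns were higher in 154 genes, lower in 172 and equal in 23. The induced difference over 156 genes was -0.0260 (-0.0379 to -0.0141), with 55 genes higher, 87 lower and 14 equal. Within these genes AT-rich introns were shorter, with a median of 736 against 1444 nt in the uninduced and 601 against 1235 nt in the induced pool. Restricted to introns within 2-fold of each other in length, an alternative added after seeing the data, the differences were 0.00529 (226 genes) and 0.000524 (100 genes).

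The genes farthest apart were named by rule among those with at least 2 introns of each kind, and these means rest on few introns. In the uninduced pool the AT-rich introns of Cnot1, the scaffold of the CCR4-NOT deadenylase, averaged 0.333 against 0.976, and those of Ppil4 0.615 against 0.972. Rbm3, a cold-induced RNA-binding protein, had 0.593 against 0.927. On the other side, Ero1l, an oxidase of the endoplasmic reticulum, had 0.903 over 6 AT-rich introns against 0.492 over 2, and Rnf4, a ubiquitin ligase, 0.953 against 0.552. The chaperone gene Hsp90b1 had 0.917 against 0.695.
Among induced introns, Kel, the gene of a red cell surface protein, was lowest with 0.547 over 5 AT-rich introns against 0.782 over 3. Ankfy1 was highest, with 0.981 against 0.804. Alas2, the erythroid enzyme that opens heme synthesis, had 0.964 over 5 AT-rich introns against 0.841 over 2.

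Splicing intermediates were seen at a larger share of AT-rich introns. NIC was above 0 at 632 of 1547 AT-rich introns in the uninduced pool (40.9%) and at 334 of 725 in the induced pool (46.1%), against 34.9% and 37.3% of length-matched comparison introns. Mean NIC was 0.0483 against 0.0414 in the uninduced pool, a difference of 0.00689 (0.000543 to 0.0132), and 0.0529 against 0.0399 in the induced pool, a difference of 0.0129 (0.00374 to 0.0221). With intermediates and spliced reads added together over introns, intermediates made up 3.50% of the uninduced molecules at AT-rich introns (Wilson 95% interval 3.32 to 3.69). They made up 4.29% of the induced ones (4.02 to 4.59). The comparison introns, with their own lengths, had 2.66% and 3.44%.

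The median AT-rich intron had 13 uninduced and 15 induced molecules behind its NIC, and a count of 0 there allows a share of up to 23.1% and 20.0%. With at least 10 such reads, an alternative added after seeing the data, the differences were 0.00519 and 0.00666. Intermediates taken over all reads gave 0.00569 and 0.00633, leaving out NIC above 0.5 gave 0.00527 and 0.00802, and matching on splice site scores as well gave 0.00435 and 0.0111. In introns present in all annotated transcripts that span them, the differences were -0.00106 and 0.00430. Of these 10 values, only the induced 0.0111 exceeds the half-width of the counting interval of the reported difference, 0.00635 uninduced and 0.00919 induced. Other alternatives exceeded it in both pools: a GC limit of 38% gave 0.00877 and 0.0186, each gene once 0.00807 and 0.0128, and a minimum of 20 reads 0.00766 and 0.00948. Reads added together gave 0.00946 and 0.00879, above it in the uninduced pool only. Nearest length pairs gave 0.00590 and 0.0148, above it in the induced pool only.

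**Figure D3:**
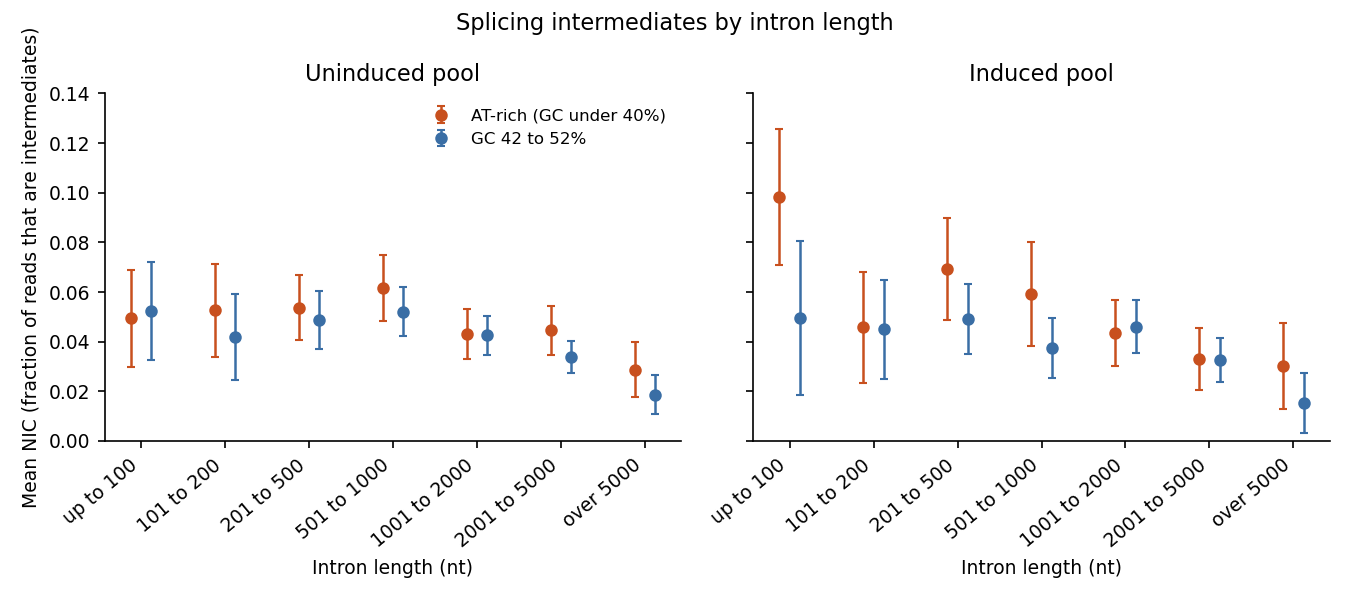
Mean NIC by intron length for AT-rich introns and for introns of GC 42 to 52%, in the uninduced (left) and induced (right) pool, with 95% intervals for counting error only. The intervals of the classes overlap at every length in both pools, and the widest gap is at up to 100 nt in the induced pool, at 0.0984 against 0.0494.

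Within genes, NIC of AT-rich introns exceeded that of comparison introns by 0.00969 over 349 genes in the uninduced pool (-0.00143 to 0.0208; 146 genes higher, 126 lower, 77 equal). The induced difference was 0.0216 over 156 genes (0.00482 to 0.0383; 79 higher, 42 lower, 35 equal). Restricted to lengths within 2-fold, it was 0.0113 (-0.00191 to 0.0246) and 0.0155 (-0.00538 to 0.0363), and neither interval excluded 0. The genes farthest ahead were Cnot1 (0.500 against 0), Ppil4 (0.333 against 0.0455) and Kel (0.285 against 0.00855) in the uninduced pool, and Kel (0.335 against 0.0144), Ppil4 and Lars in the induced pool.

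At a few AT-rich introns NIC was high, which is a share that leaves out unspliced reads. Of the 544 listed in both pools, 12 had a NIC above 0.25 with at least 3 intermediates in the uninduced pool. Read in the induced pool, these 12 had a median of 0.241, 10 were above 0 and 6 above 0.25. The other 532 had a median of 0, and 15 of them were above 0.25. Chosen in the induced pool, 17 introns had an uninduced median of 0.167, and 6 of them were above 0.25, against 10 of the other 527.

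Of the 6 introns that passed this limit in both pools, the 5 with at least 20 molecules in each are shown by their 3′ splice sites, 20 intron bases and 3 exon bases with the closing AG in capitals, since the pyrimidine run before the AG differs among them. The remaining one, Ppil4 intron 4, had 4 of 6 and 3 of 10 molecules as intermediates.
Hnrnpk intron 6 (chr13:58397797-58399155, 3′ score 0.09): aacgccaatgaccaatgcAGtac
Pkhd1l1 intron 16 (chr15:44498602-44499248, 3′ score 3.46): cttttgaaattcatccaaAGtct
Srsf5 intron 5 (chr12:80947866-80949094, 3′ score 5.65): cataattgtcttgtgttaAGgat
Kel intron 6 (chr6:41699227-41701912, 3′ score 7.18): ccagtctctcttgtgtccAGata
Kel intron 8 (chr6:41698449-41698887, 3′ score 8.69): ttttgtgtcttttctctaAGgaa

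Hnrnpk encodes an abundant poly(C)-binding ribonucleoprotein. At its intron 6, 42 of 65 uninduced molecules (0.646; Wilson 95% interval 0.525 to 0.751) and 37 of 63 induced molecules (0.587; 0.464 to 0.700) were intermediates. Its neighbours were far lower: intron 5 had 5 of 138 and 6 of 109, and intron 7 had 3 of 26 and 5 of 30. Its 3′ score of 0.09 compares with 11.99 at intron 5 and 3.5 at intron 7, and the intron is present in 15 of the 18 annotated transcripts that span it.

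Pkhd1l1, which encodes a large receptor-like protein, had 32 of 54 intermediates at intron 16 in the uninduced pool (0.593; 0.460 to 0.713) and 48 of 64 in the induced pool (0.750; 0.632 to 0.840). The intron has a GC content of 26.3% and lies in all 3 annotated transcripts that span it. Its neighbours were lower in the uninduced pool, where introns 15, 17 and 18 had none among 55, 13 and 15 molecules. In the induced pool intron 15 had 2 of 89 and intron 18 none of 8, but intron 17 had 4 of 13 (0.308).

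Srsf5, a serine-arginine splicing factor, had 21 of 38 intermediates (0.553) and 26 of 41 (0.634) at intron 5. Its introns 3 and 4, both AT-rich, stayed between 0.00806 and 0.0286. Intron 6 on the other side, also AT-rich, had 3 of 28 molecules in the uninduced and 3 of 7 (0.429) in the induced pool, and intron 7 had 2 of 20 in the uninduced pool. Intron 5 was also only partly spliced, with coSE of 0.449 and 0.485, and it is absent from 3 of the 8 annotated transcripts that span it.

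Kel had 2 such introns. Many reads at both were unspliced, with coSE of 0.34 and 0.275 at intron 6 and 0.262 and 0.367 at intron 8. At intron 8, 15 of 22 molecules were intermediates in each pool (0.682; 0.473 to 0.836). At intron 6 there were 8 of 22 in the uninduced pool (0.364) and 25 of 36 in the induced pool (0.694), with an adjusted p of 1 by Fisher's exact test. Introns 1 to 5 of Kel, of which only intron 2 is AT-rich, did not exceed 0.0909, and intron 7 between them had 1 of 39 in each pool. Farther along, intron 11, at a GC content of 40.9%, had 1 of 10 and 3 of 8.

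**Figure D4:**
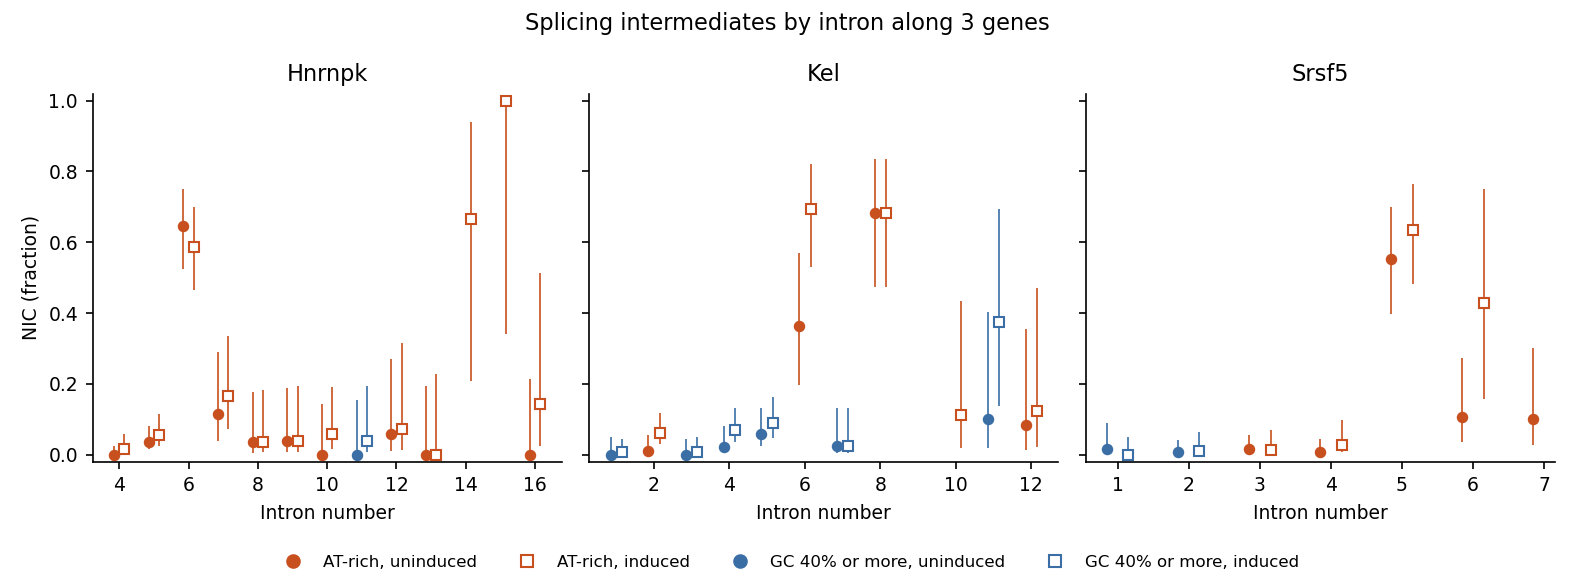
NIC at each listed intron of Hnrnpk, Kel and Srsf5 by intron number, with Wilson 95% intervals for counting error only, circles for the uninduced and squares for the induced pool. High in both pools are intron 6 of Hnrnpk (0.646 and 0.587), introns 6 and 8 of Kel, and intron 5 of Srsf5 (0.553 and 0.634). The high squares at Srsf5 intron 6, Kel intron 11 and Hnrnpk introns 14 and 15 rest on 7, 8, 3 and 2 molecules.

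For high NIC the naming rule asks for at least 3 intermediates. Under it, the highest uninduced values came at introns with few molecules: Ewsr1 intron 9 (4 of 4), Prpf4b intron 2 (13 of 14), Nup88 intron 11 and Rpl21 intron 5 (4 of 5 each) and Car1 intron 2 (3 of 4). At the other end, no intermediate was found among 516 molecules at Rps6 intron 3, which allows a share of up to 0.581%. The same held for 429 molecules at Eef1a1 intron 5 (up to 0.699%) and 311 at Car1 intron 1 (up to 0.965%). Among induced molecules there was none in 163 at Tfrc intron 3 (up to 1.84%), 134 at Pkhd1l1 intron 8 (up to 2.24%) and 128 at Pkhd1l1 intron 10 (up to 2.34%).

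Weakly spliced AT-rich introns tended to be weak in both pools. Of the 972 with at least 10 reads in each, 47 had a coSE under 0.5 in the uninduced pool. Read in the induced pool, 26 of these 47 were under 0.5 with a median of 0.410, against 22 of the other 925 with a median of 0.960. Chosen in the induced pool, 48 introns had 26 under 0.5 in the uninduced pool, against 21 of the other 924. One gene supplied many of them: of the 47, Eif4g2 held 10, Hnrnph1 4 and Clk1, Eif3a, Hspa8, Kel and Srsf7 2 each.

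Among introns that the table of intermediates lists for the uninduced pool, the lowest coSE with at least 20 reads came at Nup88 intron 11 (2 of 22 reads spliced), Phka2 intron 17 (5 of 55), Hnrnpa3 intron 3 (2 of 21), Gpr89 intron 4 (2 of 20) and S100pbp intron 3 (5 of 31). The lowest among those listed for the induced pool came at Brcc3 intron 2 (1 of 26), S100pbp intron 3 (1 of 23), Hnrnpk intron 14 (2 of 25), Hnrnph1 intron 6 (2 of 22) and Eif4g2 intron 13 (4 of 33). All 9 of these introns are missing from at least 1 annotated transcript that spans them. S100pbp intron 3 is present in 1 of the 12 transcripts that span it, Nup88 intron 11 in 2 of 7 and Hnrnpk intron 14 in 9 of 12. Brcc3 intron 2 and Hnrnpk intron 14 are not listed for the uninduced pool, but the table of spliced and unspliced reads gives them still lower values there, 1 of 33 and 0 of 30 reads.

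The deepest AT-rich introns listed for the uninduced pool with no unspliced read were Pkhd1l1 intron 6 (108 reads; Wilson lower bound 0.966), Naca introns 5 and 6 (91 and 88 reads), and Pcmtd2 intron 2 and Pkhd1l1 intron 14 (74 each). The induced ones included Rps3a1 intron 4 (183 reads; lower bound 0.979), Pkhd1l1 intron 12 (129), Ergic2 intron 2 (114) and Rpl14 intron 5 (92). Ergic2 intron 2 had no unspliced read among its 71 uninduced reads either.

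The share of introns that were AT-rich differed widely between gene groups, beside 26.4% of all introns in the table. It was 71.6% in hnRNP genes (48 of 67 introns), 58.0% in RNA helicases (47 of 81) and 49.0% in SR and other splicing factors (49 of 100). Chromatin and cohesin genes had 42.9% (30 of 70) and translation factors 40.5% (81 of 200), while ribosomal protein genes had 11.4% (35 of 306), DNA replication genes 16.9% (13 of 77) and globins 1 of 8. Zinc finger genes had 44.4%, heme and iron genes 28.2%, proteasome subunits 25.0%, mitochondrial respiratory chain genes 22.8% and chaperones 20.9%.

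Mean coSE over the AT-rich introns of a group in the uninduced pool was highest in proteasome (0.937, 27 introns) and mitochondrial genes (0.913, 26), beside 0.869 over all AT-rich introns. It was lowest in RNA helicases (0.664, 47), splicing factors (0.753, 46), hnRNP genes (0.755, 36), chaperones (0.775, 24), translation factors (0.788, 71) and DNA replication genes (0.795, 13), leaving aside the single globin intron. The introns listed for the induced pool are partly different ones, and among them RNA helicases averaged 0.847 (25), splicing factors 0.806 (27) and DNA replication genes 0.954 (6), and hnRNP genes 0.644 (32), chaperones 0.647 (8) and translation factors 0.672 (43), beside 0.868 over all. Proteasome genes averaged 0.927 (7) there, mitochondrial genes 0.763 (4) and chromatin and cohesin genes 0.750 (6), the last of which had 0.880 (29) among uninduced introns. Mean uninduced NIC was above the AT-rich average of 0.0483 in splicing factors (0.105), RNA helicases (0.0922), translation factors (0.0779), DNA replication genes (0.0769) and hnRNP genes (0.0658), and at the globin intron. Single genes weigh on these means. In the uninduced pool, Ddx3x supplied 12 of the 47 RNA helicase introns at a mean coSE of 0.417, and Eif4g2 8 of the 71 translation factor introns at 0.306. The group means were not matched on length and were not tested, and since they rest on different introns they show no change between pools.

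Long genes contributed many members. Pkhd1l1 held 52 AT-rich introns among its 55 in the table. Xrn2, a nuclear exonuclease that acts in termination, held 17 of 21, and Abce1, Ddx3y, Eif4g2 and Top2a held 15 each. The 24 genes with 10 or more AT-rich introns held 353 of the 1728, while 256 genes held 1. Mean coSE over the AT-rich introns listed for the uninduced pool differed between genes. Pkhd1l1 stood at 0.934 (51 introns, 0.667 to 1) and the dynamin-related gene Dnm1l at 0.978 (13 introns, 0.895 to 1). Ddx3x, the X-linked partner of Ddx3y, stood at 0.417 (12 introns, 0.222 to 0.739), and Ddx3y at 0.776 (15 introns, 0.400 to 0.982). Eif4g2, a translation initiation factor, stood at 0.306 (8 introns, 0.182 to 0.429). Further AT-rich introns of Eif4g2 that have at least 10 uninduced reads but are not listed for that pool reached 0.833, at intron 16 (12 reads). Ddx3x and Ddx3y are close in sequence, and how reads were assigned between them is not given in the sources used here.

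The second question was whether AT-rich introns differed between uninduced and induced cells. Across the 972 AT-rich introns with at least 10 reads in both pools, coSE was higher in the induced pool at 416, lower at 365 and equal at 191, with a median difference of 0 and a mean of 0.00579. Over all 4403 introns the median was 0 and the mean 0.0101. With reads added together the direction was the opposite: coSE was 0.897 before and 0.889 after induction over the AT-rich introns, and 0.897 and 0.868 over all introns. Spearman's rho between the pools across the 972 was 0.574. Mean NIC of the 544 AT-rich introns listed in both was 0.0503 before and 0.0504 after induction. With their reads added together, which weights deep introns more, it was 0.0305 and 0.0441.

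By Fisher's exact test with Benjamini-Hochberg adjustment over all 4403 introns, 12 of the 972 AT-rich introns passed an adjusted p of 0.05, or 1.23%, against 1.61% of all introns. Of these, 10 were lower in the induced pool, where 1.25% of all introns were called, and 2 were higher, where 0.363% were called. Among the comparison introns of GC 42 to 52%, 41 of 1610 were called, or 2.55%, and the difference between the classes was not tested. At an unadjusted p under 0.05 there were 80 of the 972 AT-rich introns, 44 higher and 36 lower, and 351 of all 4403 introns, 158 higher and 193 lower. These are similar shares, and the difference in direction was not tested. The 12 lie in 7 genes, and 5 of them in Eef1a1, without which 6 were called.

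**Figure D5:**
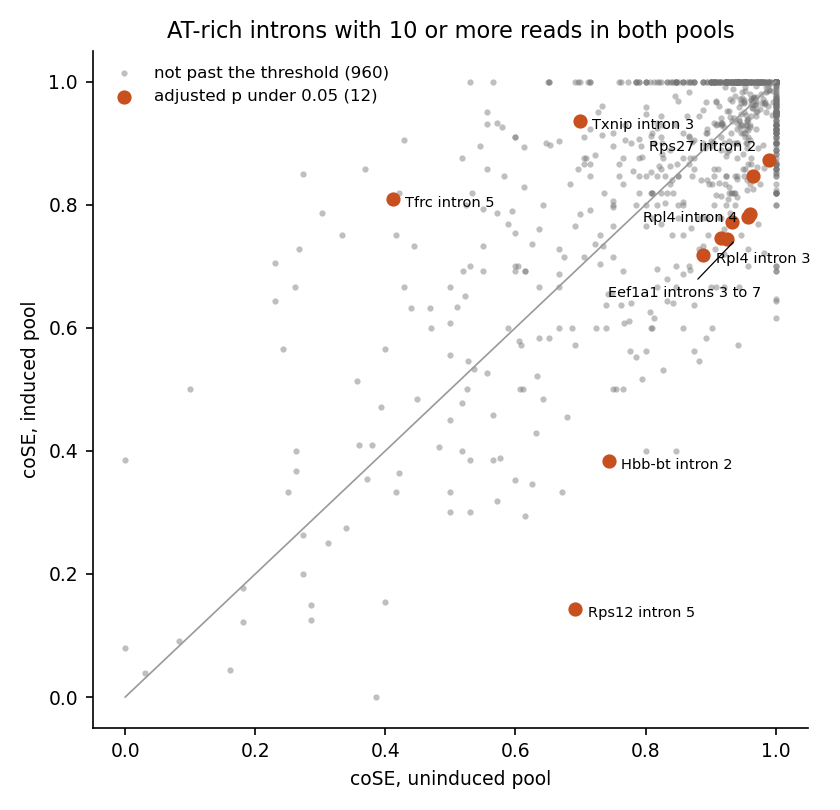
coSE of the 972 AT-rich introns with at least 10 reads in both pools, uninduced on the horizontal and induced on the vertical axis, with the line of equality. The 12 introns past the threshold are marked: 10 lie below the line, among them 5 of Eef1a1, and 2 above it, in Txnip and Tfrc.

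The falls were in genes of the translation apparatus and in a globin gene. Eef1a1, which carries aminoacyl-tRNA to the ribosome, fell at introns 3 to 7, all of its AT-rich introns. Its intron 3 was spliced in 568 of 588 uninduced and 83 of 98 induced reads, a coSE of 0.966 against 0.847 with an adjusted p of 0.00351. Intron 4, printed above, fell from 0.957 (446 of 466 reads) to 0.780 (71 of 91), with an adjusted p of 0.000134. Introns 5, 6 and 7 fell from 0.934 to 0.771, from 0.925 to 0.744 and from 0.917 to 0.745, with adjusted p of 0.00369, 0.00176 and 0.0372 by Fisher's exact test. The fall was not particular to low GC content: intron 2, at 43.3%, fell from 0.962 to 0.854 with an adjusted p of 0.00971, and intron 1, at 64.3%, stood at 0.970 and 0.963 with an adjusted p of 1. Single reads can cover all of these introns, so they are not separate observations.

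Hbb-bt encodes an adult beta-globin chain, and its intron 2 (chr7:103812785-103813438, GC 39.8%) is the only AT-rich intron among the globin introns in the table. It was spliced in 58 of 78 uninduced reads (0.744; Wilson 95% interval 0.637 to 0.827) but only 56 of 146 induced ones (0.384; 0.309 to 0.464), with an adjusted p of 0.000140. Its NIC was 4 of 57 in the uninduced and 23 of 74 in the induced pool, 0.0702 and 0.311, the smallest p of all AT-rich introns in that test (unadjusted p 0.000856, adjusted p 0.436 by Fisher's exact test). Its GC content lies close to the 40% limit, and intron 1 of the same gene, at 48.3%, fell from 0.658 (48 of 73 reads) to 0.277 (75 of 271), with an adjusted p of 5.33e-06 by Fisher's exact test. Hbb-bt and Hbb-bs are near-identical in sequence, and how reads were assigned between them is not given in the sources used here.

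The ribosomal protein genes with falls were Rpl4, Rps27 and Rps12. Rpl4 intron 4 (chr9:64175723-64176091) fell from 0.961 (324 of 337 reads) to 0.785 (51 of 65), with an adjusted p of 0.00193. Rpl4 intron 3, the U12-type intron printed above, fell from 0.889 to 0.718 with an adjusted p of 0.0361, and intron 2 was spliced in 418 of 440 and 60 of 70 reads, with an adjusted p of 0.220. Rps27 intron 2 (chr3:90213045-90213192) fell from 0.989 (282 of 285) to 0.873 (62 of 71), with an adjusted p of 0.00548 by Fisher's exact test. Rps12 intron 5 (chr10:23785274-23785575) fell from 0.692 (36 of 52) to 0.143, on 14 induced reads, with an adjusted p of 0.0324. Of the 24 AT-rich introns of ribosomal protein genes that were tested, 18 were lower and 6 higher, with a median difference of -0.0419. Eef1a1 and ribosomal protein genes have many processed copies elsewhere in the genome, and how reads were assigned among copies is not given in the sources used here.

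The 2 rises were in Txnip and Tfrc. Txnip encodes an inhibitor of thioredoxin, and its intron 3 (chr3:96559218-96559332, GC 28.7%) rose from 0.699 (65 of 93 reads) to 0.937 (59 of 63), with an adjusted p of 0.0209. Its introns 5 and 6, with GC content of 44.6 and 47.8%, rose as well, from 0.479 to 0.821 and from 0.373 to 0.725, with adjusted p of 0.00314 and 0.00374 by Fisher's exact test. Tfrc encodes the transferrin receptor, through which red cell precursors take up iron. Its intron 5 (chr16:32616899-32617096, GC 29.3%) rose from 0.412 (7 of 17 reads) to 0.810 (136 of 168), with an adjusted p of 0.0485. Of the 10 AT-rich introns of Tfrc with at least 10 reads in both pools, 6 were higher and 4 lower, and none but intron 5 passed. Intron 6 beside it was spliced in 9 of 15 and 126 of 167 reads, and introns 7, 8 and 12 stood at 0.867, 0.867 and 0.667 against 0.912, 0.984 and 0.904. The remaining 5, introns 2, 3, 4, 9 and 10, stood between 0.938 and 1 in both pools. With no minimum beyond 1 read, Tfrc intron 5, Txnip intron 3, Rps12 intron 5, Rpl4 intron 3 and Eef1a1 intron 7 were no longer past the threshold, with adjusted p between 0.184 and 0.422.

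Means over the AT-rich introns of a gene with at least 10 reads in both pools also differed where none was called, with no test of the mean. Eif4g2 had 14 such introns, whose mean coSE was 0.408 before and 0.560 after induction, with 8 higher and 6 lower. Over the 10 of Top2a it was 0.861 and 0.927, with 7 higher, 2 lower and 1 equal, and over the 46 of Pkhd1l1 it was 0.938 and 0.912, with 20 higher, 21 lower and 5 equal. Over the 3 of Ddx3x it was 0.542 and 0.323, with 0 higher and 3 lower. Among the gene groups, 20 of 31 tested RNA helicase introns were higher and 11 lower, and hnRNP introns were 16 and 16, with none called in either group. Chaperone introns were 4 higher and 10 lower, mitochondrial introns 2 and 6, and translation factor introns 20 and 29, with the 5 calls of Eef1a1 among the last. Over all 4403 introns, 1879 were higher and 1534 lower.

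For NIC, none of the 544 AT-rich introns passed by Fisher's exact test, against 0.0981% of all 2039 tested (2 introns, both higher, with 0 lower). An unadjusted p under 0.05 was found for 11 of the 544 AT-rich introns and for 34 of all 2039, which are similar shares, and the chi-square test called 1. After Hbb-bt intron 2, the smallest p-values were at Npm1 introns 6 and 8, Kel intron 6 and Eef1a1 intron 7. Npm1 encodes the nucleolar protein nucleophosmin, and its intron 6 had a NIC of 0.0199 in uninduced and 0.156 (5 of 32 molecules) in induced cells, with an adjusted p of 0.877.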

How the data were processed

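PacBio long reads of chromatin RNA from MEL cells underlie 2 tables that the authors deposited, each giving an intron 1 line per condition. The first holds whole-number counts of spliced and unspliced reads, per the file headers. The second holds deposited counts of spliced reads and intermediates, the deposited fraction NIC, GC content as a percent deposited by the authors, and their deposited score of either splice site. Per the submitters' processing notes, cutadapt, minimap2, SAMtools, bedtools and Bowtie were used with mm10 and dm3, in roles and versions not given in the sources used here. NIC equals intermediates over intermediates plus spliced reads in all 8576 lines. Which runs were added together is not given, so samples could not be separated, and depth is given per pool: 358493 spliced and 57886 unspliced observations uninduced, 240664 and 38707 induced.

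Here, coSE was computed from the first table with Python 3.11.15, pandas 2.3.3 and scipy 1.17.1. Positions (start plus 2, end less 1) matched annotated introns of GENCODE release 21 for 99.97% of the second table. The listed GC content equalled that of the intron within 0.0001 percentage points in all 702 introns, 163 of them AT-rich, whose sequence a transcript held. AT-rich introns have GC under 40%. Comparison means were weighted to AT-rich introns over 2 length bins per doubling. Intervals come from the binomial variance of each intron and cover counting error only. Fisher's exact tests, two-sided, ran on all introns with at least 10 reads in both pools, with Benjamini-Hochberg adjusted p under 0.05 as the threshold, and were tested on simulated data.

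The members, gene lists and tests were chosen with earlier results of these data known. Introns were named by rule: all past a threshold and the smallest p-values, extremes of GC, length, coSE and NIC, U12-type and GC-AG forms, the deepest of each gene list, and genes with the most AT-rich introns or the widest within-gene differences. Neighbouring introns of named genes, and the introns high in both pools, were added after their values were seen. Motif searches within whole introns were not run, since no genome sequence was used here, and 60 AT-rich introns on chromosome 18 are given without sequence. Alternatives varied the GC limit, comparison band, length matching, read minimum, weighting, transcript annotation, test and genes included. Results of some introns that the naming rule selects are not reported here.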

Additional observations from a re-analysis of the deposited data

How the results depend on the processing

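With medians of 21 and 24 reads per AT-rich intron, single values are coarse, and pooled lines give no replicate error. No paired analysis was possible because replicates were added together in the deposited lines, so neither a replicate block nor leaving out replicates could be run. Of 84 recomputed values, 67 stayed within the counting interval of the reported one (counts within 1.5 times), 14 moved and 3 reversed, where a reversal is a change of sign of a difference whose counting interval excluded 0. That interval is wide for NIC: the induced NIC difference of 0.0129 went as low as 0.00430 within it, and introns of 200 to 5000 nt took the within-gene NIC differences from 0.00969 and 0.0216 to 0.00441 and 0.0125. With no minimum beyond 1 read, 8 coSE calls were made in place of 12. The reversals were the uninduced NIC difference in introns of all annotated transcripts (-0.00106, from 0.00689), the induced coSE difference without length matching (-0.00326, from 0.0112) and the induced within-gene coSE difference at lengths within 2-fold (0.000524, from -0.0260). The uninduced coSE difference of 0.0164 moved to 0.00900 with reads added together, 0.00677 without length matching, 0.0361 with each gene once and 0.0257 in introns of all annotated transcripts. The induced one moved to 0.0290 with reads added together, 0.0331 with each gene once and 0.0345 in introns of all annotated transcripts. Within genes, a GC limit of 38% gave -0.0158 and -0.0493, a minimum of 20 reads gave -0.0392 in the induced pool, and lengths within 2-fold gave 0.00529 in the uninduced pool, a change of sign from -0.00413, whose interval included 0. Without Eef1a1, 6 coSE calls were made in place of 12, and the chi-square test made 1 NIC call in place of 0. With reads added together, the coSE of AT-rich introns differed by -0.00770 between pools in place of a median of 0. The cause of these shifts was not tested.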

Other observations

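Mean coSE per gene was lowest where no intron was AT-rich, a difference that was not tested. Among genes with at least 3 introns in the table, the uninduced mean was 0.861 where no intron was AT-rich (351 genes), 0.877 where some but fewer than 50% were (228 genes) and 0.872 in the remaining 199 genes. In the induced pool the means were 0.850 (217 genes), 0.898 (98) and 0.882 (89), and these genes also had longer introns, with medians of 602, 1011.75 and 1148 nt.

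Among AT-rich introns the 3′ score was related to coSE more than the 5′ score was. Spearman's rho across the 1547 uninduced introns was 0.141 for the 3′ score and -0.000713 for the 5′ score, and across the 725 induced introns 0.123 and 0.0793. The relation of GC content to coSE had opposite signs in the classes, 0.176 in AT-rich introns and -0.175 in the 2505 comparison introns, and so had that of GC content to length, 0.440 and -0.314. These correlations are descriptions over introns that share genes, libraries and depth.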
